A study of Homo sapiens with 15 samples.

Results

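Nuclear pore complex genes were described across 3 clones of breast cancer cells in which the RNA-binding protein RBM47 can be switched on. The members were the 32 rows of the count table, out of 23368 genes, that carry the name of a known pore component, and all 32 names were found in it. They fall into 9 genes of the Y complex, 5 of the inner ring, 3 of the central channel, 4 transmembrane components, 6 of the cytoplasmic face, 2 present on both faces and 3 of the nuclear basket. One of the transmembrane genes, NUP210, was selected on its measured levels in these same libraries and was set against the other 31. Its values are therefore given as a description, with no test, and every count of members that passed a test is over the other 31.

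Nuclear pores are large protein assemblies that span the nuclear envelope and carry all regulated traffic between nucleus and cytoplasm. The Y complex and the inner ring form the scaffold, transmembrane nucleoporins hold it in the membrane, and phenylalanine-glycine repeat proteins fill the channel and bind transport receptors. Filaments on the cytoplasmic face take part in the release of exported mRNA, and the basket on the nuclear face receives outgoing mRNA. NUP210 (gp210) is a membrane glycoprotein whose level is known to differ widely between cell types.

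WT6 and WT10 cells express wild type RBM47 under doxycycline control, and MUT3 cells express RBM47-I281fs, a mutant truncated at the third RNA recognition motif. In non-clonal cells the study found little of the mutant protein although its mRNA was abundant, and took the protein to be unstable and inactive. Each clone was grown from 1 cell, so every difference between WT6, WT10 and MUT3 compares clones and not only transgenes. The sample labels assign all 3 clones to the line MDA231, whereas the study's methods derive WT6 from CN34-BrM2 and the other clones from the brain metastatic derivative of MDA231. RNA was sequenced untreated and at doxycycline concentrations of 1, 2.5, 5 and 25 ng/ml, a single time for each clone and concentration, which gave 15 libraries and no replicate of any condition. Untreated cells of each clone carried the transgene as well, and no clone without it was compared here.

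The libraries held between 14955172 and 44771871 reads on genes, with a median of 18152381, and all values below are normalized counts, that is reads scaled by a size factor for the library. A count of 3 reads, the smallest level treated as detected, was worth between 1.19 and 4.09 normalized counts, and the fewest reads on any member in any library were the 45 reads of NUP210 in WT6 at 25 ng/ml. RBM47 itself measured 258, 3137, 8094, 3966 and 10425 across the rising doses in WT6, 168, 827, 2822, 8134 and 19877 in WT10, and 73.8, 92.1, 336, 949 and 22084 in MUT3. The order of the doses was thus kept in WT10 and MUT3, while WT6 at 5 ng/ml lay below WT6 at 2.5 ng/ml. In MUT3 the level was at most 949 up to 5 ng/ml, so that of its libraries only the one at 25 ng/ml had as much RBM47 mRNA as the wild type clones at their highest dose. A list of 7 genes was drawn up for basal or mesenchymal breast cancer lines, but its keratins KRT8 and KRT18 are not specific to such lines. All 7 had a normalized count of at least 10 in every library, against 3 of 7 luminal, 0 of 3 endothelial and 1 of 4 fibroblast markers. CDH5 and COL1A2 had at most 3 reads in any library.

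NUP210 mRNA was lower at each rising dose in both wild type clones and showed no such order in MUT3 cells. In WT6 it measured 415, 376, 269, 147 and 56.1 normalized counts at 0, 1, 2.5, 5 and 25 ng/ml. In WT10 the corresponding values were 717, 646, 564, 469 and 276. In MUT3 they were 405, 401, 475, 410 and 444. The level at 25 ng/ml was 0.135 times the untreated level in WT6, 0.384 times in WT10 and 1.10 times in MUT3, so the highest dose separated the wild type clones from MUT3 on opposite sides of the untreated level.

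The 45 reads of WT6 at 25 ng/ml gave an exact 95% Poisson interval of 40.9 to 75.0 normalized counts, against 375 to 459 for its untreated library. The interval of WT10 ran from 243 to 311 at 25 ng/ml and from 664 to 774 untreated, and that of MUT3 from 403 to 489 and from 362 to 452. These intervals cover counting error alone and not how far separate cultures would differ. The dose slope, meaning the change on the log2 scale of the normalized count per unit of log2(dose + 1), was -0.61 ± 0.06 (SE) in WT6, -0.30 ± 0.04 in WT10 and 0.03 ± 0.04 in MUT3. Of 12644 genes fitted, 14 had a lower slope than NUP210 in WT6 and 21 in WT10. Since NUP210 was selected on these levels, its place among the genes is a description and no test. With trends of each library with transcript length and GC content removed, its slopes were -0.48, -0.23 and 0.01.

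The gene lies on the minus strand of chromosome 3 at chr3:13357735-13461822 (hg19), where no other annotated gene overlaps it. A pseudogene, NUP210P1, has a separate entry, and reads that fit both could have been lost from either.

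**Figure D1:**
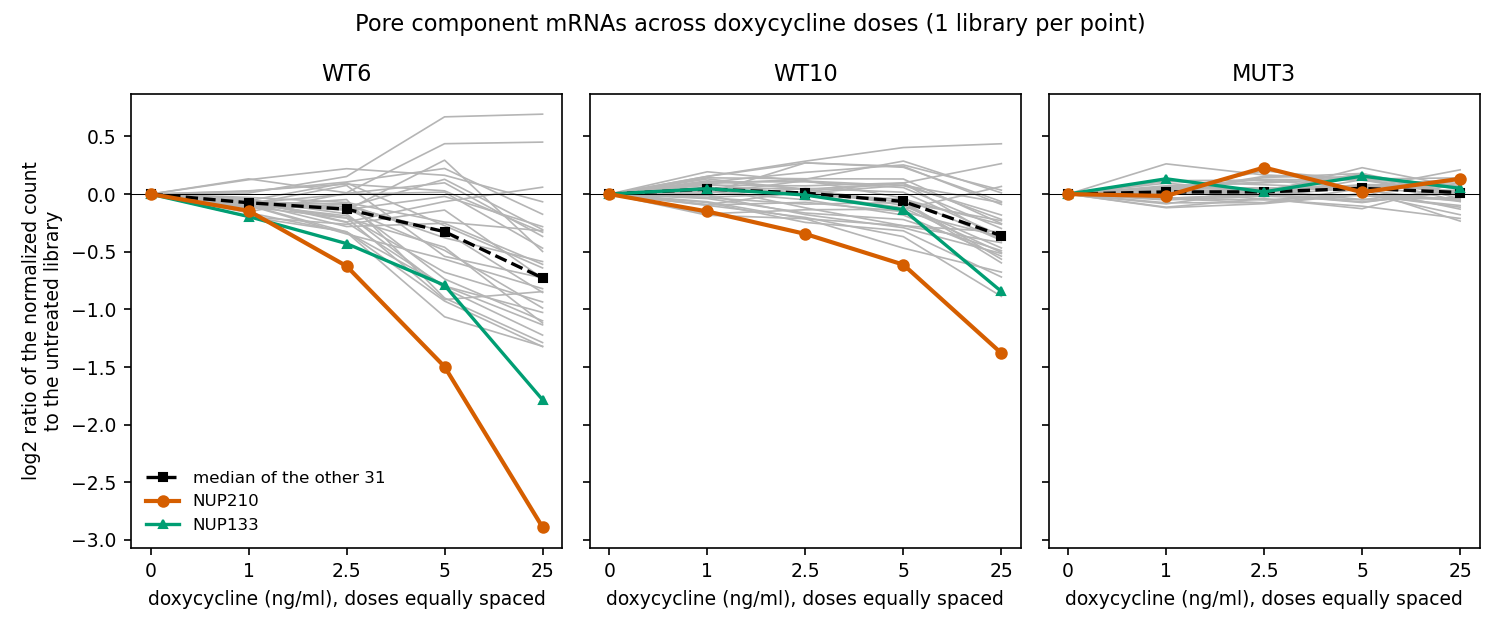
Log2 ratio of the normalized count at each doxycycline dose (x axis, ng/ml, equally spaced) to the untreated library of the same clone, 1 library per point, for NUP210 (orange), NUP133 (green), the other components (grey) and the median of all 31 other than NUP210 (dashed). NUP210 ends at -2.89 in WT6, -1.38 in WT10 and 0.13 in MUT3, below every grey line at 25 ng/ml in the wild type clones.

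Promoter windows of 3 members are printed to show the DNA at the start of NUP210 and of NUP133 and NUP188, the members of the scaffold with the steepest slopes (a choice made after the values were seen). Each holds the 250 bases before and the first 50 bases of the RefSeq start site, 5′ to 3′ on the gene's strand, build GRCh38.p14. Capitals mark matches on either strand to any of 5 motifs, namely the GC box GGGCGG, the CCAAT box CCAAT, the NRF1 site TGCGCATGC, the cAMP response element TGACGTCA and the E-box CACGTG, none of which contains another. The window of NUP210 is chr3:13420273-13420572 on the minus strand, that of NUP133 is chr1:229508292-229508591 on the minus strand, and that of NUP188 is chr9:128947449-128947748 on the plus strand.
NUP210: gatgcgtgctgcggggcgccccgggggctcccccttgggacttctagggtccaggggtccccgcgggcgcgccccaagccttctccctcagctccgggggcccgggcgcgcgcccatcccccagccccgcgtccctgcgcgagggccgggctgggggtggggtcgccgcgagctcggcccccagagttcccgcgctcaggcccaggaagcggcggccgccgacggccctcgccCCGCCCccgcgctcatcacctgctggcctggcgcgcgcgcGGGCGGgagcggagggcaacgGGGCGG
NUP133: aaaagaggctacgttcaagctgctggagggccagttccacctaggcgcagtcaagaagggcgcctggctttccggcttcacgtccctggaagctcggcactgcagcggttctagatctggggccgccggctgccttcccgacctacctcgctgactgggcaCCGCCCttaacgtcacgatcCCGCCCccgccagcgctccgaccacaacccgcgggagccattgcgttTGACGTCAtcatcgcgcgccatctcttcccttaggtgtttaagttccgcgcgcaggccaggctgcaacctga
NUP188: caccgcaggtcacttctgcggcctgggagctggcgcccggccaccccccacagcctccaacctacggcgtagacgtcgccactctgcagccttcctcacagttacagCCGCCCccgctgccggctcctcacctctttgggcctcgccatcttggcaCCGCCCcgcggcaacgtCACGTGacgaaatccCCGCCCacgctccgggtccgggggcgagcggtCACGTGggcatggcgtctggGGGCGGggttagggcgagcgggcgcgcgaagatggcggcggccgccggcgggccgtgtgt
The NUP210 window held 3 GC boxes and none of the other motifs, and 81.3% of its bases were G or C, against 63.7% in NUP133 and 73.0% in NUP188. NUP133 had 2 GC boxes and 1 cAMP response element, and NUP188 had 4 GC boxes and 2 E-boxes. Windows were found for 29 of the 32 members, 37 windows in all because some genes have several starts. The GC box stood in 45.9% of these and in 45.0% of all 35116 promoter windows of this length, and CCAAT in 37.8% and 34.6%. The NRF1 site in this spelling stood in 1 member window (NUP62), which is 2.70% against 1.56% of all windows. The cAMP response element stood in 3 (NUP133, NUP214 and NUPL2), 8.11% against 1.85%, and the E-box in 2 (NUP188 and NUP50), 5.41% against 7.26%. A match is a run of letters and not a measured binding site.

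Most of the other pore components were also lower at 25 ng/ml than untreated in the wild type clones, by smaller factors than NUP210. In WT6 the ratio of the 25 ng/ml to the untreated library had a median of 0.604 over the 31 genes and ran from 0.290 for NUP133 and 0.40 for TPR to 1.62 for SEC13. It was below 1 for 28 of the 31 and below 0.5 for 9, compared with 49.1% and 7.64% of all genes tested. In WT10 the median was 0.779, from 0.541 for NUP188 to 1.35 for NUP43, with 26 of 31 below 1, compared with 51.6% of genes. In MUT3 it was 1.01, from 0.850 for NUP37 to 1.16 for GLE1, with 14 of 31 below 1, compared with 45.7% of genes. The ratio of NUP210, which was selected on these levels, lay outside the range of the other components in WT6 and WT10 and inside it in MUT3. Level went down at each of the 4 steps of dose for 12 of the 31 in WT6 and for 6 in WT10 (AAAS, NUP188, NUP62, NUP85, POM121 and POM121C), against 8.76% and 9.63% of all genes tested. No member did so in MUT3, where 0.989% of genes did. In bulk RNA, fewer cells with an mRNA and less of it per cell cannot be told apart.

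In the fit across all genes, 23 of the 31 other pore components fell with dose in WT6 and 2 rose, compared with 28.3% of genes tested called lower and 29.2% called higher (limma, Benjamini-Hochberg adjusted p under 0.05). In WT10 11 fell and 1 rose, compared with 9.83% and 10.2% of genes. All 11 had also fallen in WT6, and 7.34% of all genes tested fell in both clones. The median slope of the 31 was -0.14 in WT6 and -0.08 in WT10, where the median of all genes was 0.01 and 0.00, and 25 of the 31 had a slope below 0 in both. In MUT3 no member passed, nor did any other gene tested in this fit (0.0% called lower). There 0 members had an unadjusted p under 0.05, 0 passed with edgeR or DESeq2 on the recovered reads, and the median slope of the 31 was 0.00.

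The counts depended on the libraries in the fit, as did those of all genes. Without the libraries at 25 ng/ml, 17 members were called in WT6, where 4688 of the 12644 genes were, and 0 in WT10 (7 with an unadjusted p under 0.05), where 17 of all genes were. The median WT10 slope of the 31 in that fit was -0.03, beside -0.08 with all doses. Of the 31, 17 had a WT10 slope below 0, beside 26 with all doses, where 52.4% of all genes had one without 25 ng/ml. The WT10 slopes in that fit were -0.18 for NUP62, -0.12 for POM121 and -0.13 for POM121C, beside -0.16, -0.12 and -0.16 with all doses. That of NUP133 was -0.05, beside -0.18 with all doses. Without the libraries at 1 ng/ml 6 members were called in WT10 and 1006 of all genes. Without the WT6 libraries at 5 and 25 ng/ml, an alternative added after seeing the data, 0 were called in WT6 (10 with an unadjusted p under 0.05) with 182 of all genes, and 22 in WT10 with 4915 of all genes. The median WT6 slope of the 31 was then -0.07.

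**Figure D2:**
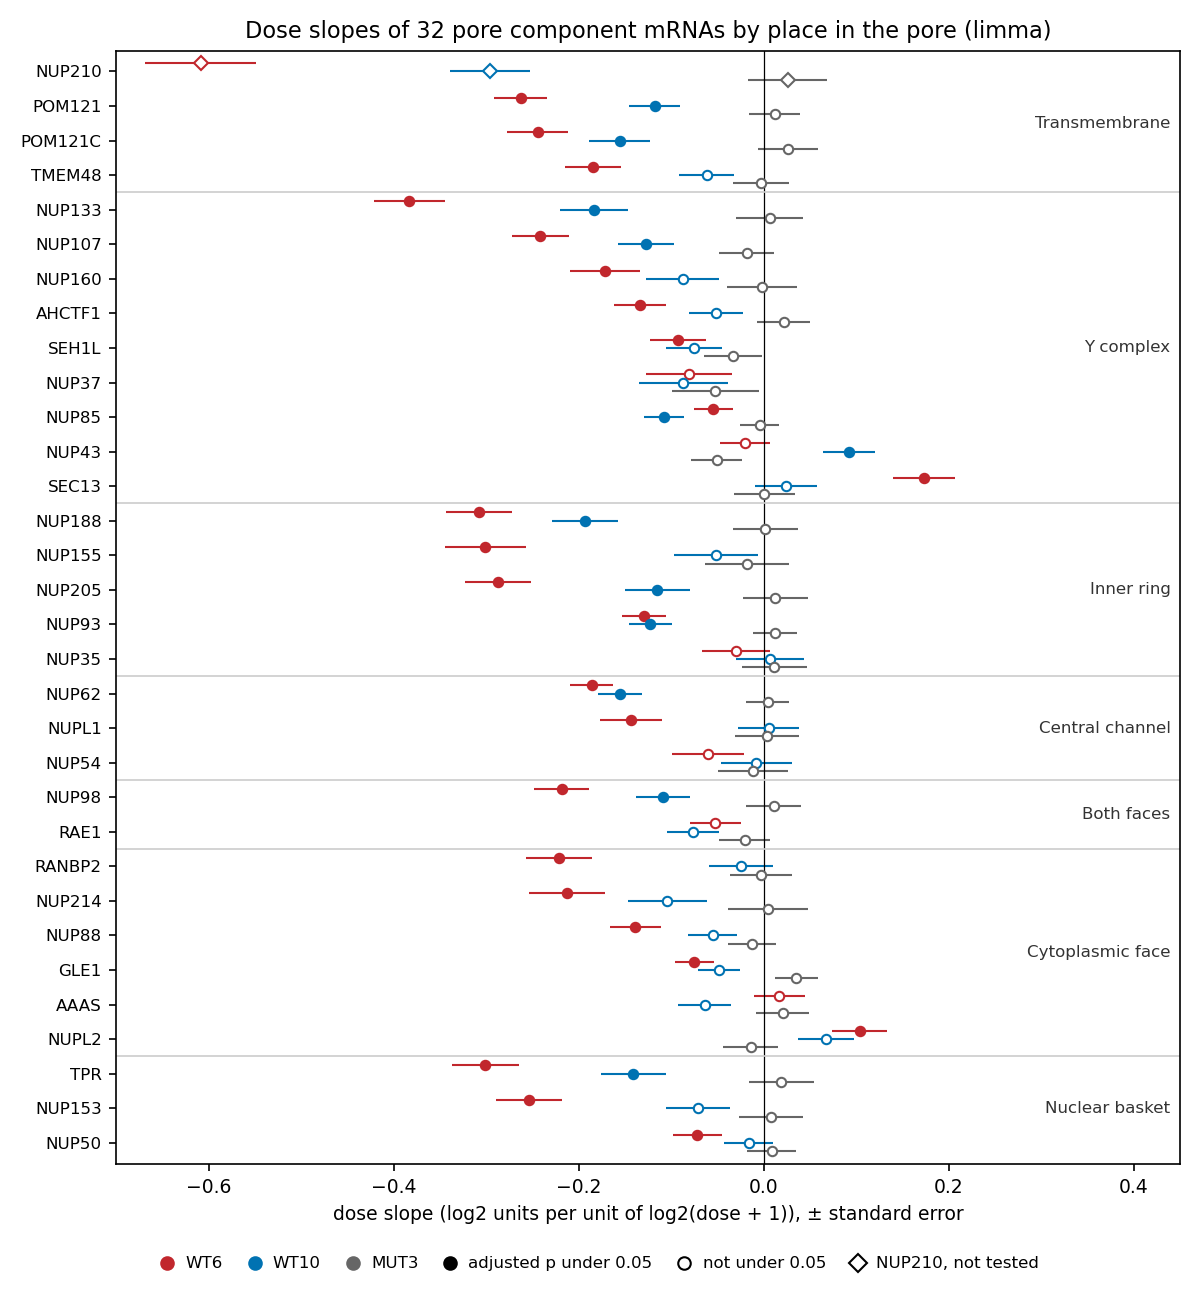
Dose slope (x axis, log2 units per unit of log2(dose + 1)) with its standard error for each of the 32 genes (y axis), grouped by place in the pore, in WT6 (red), WT10 (blue) and MUT3 (grey). Filled circles passed the test, open circles did not, and diamonds are NUP210, which was not tested; the filled points of WT6 and WT10 lie to the left of 0 except for SEC13, NUPL2 and NUP43, and the MUT3 points lie within -0.05 and 0.04.

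Of the 3 other transmembrane genes, all 3 fell in WT6 and 2 in WT10. POM121, which anchors the pore in the membrane, measured 1717, 1609, 1368, 988 and 782 in WT6, 1577, 1564, 1394, 1289 and 1104 in WT10, and 1363, 1285, 1394, 1319 and 1397 in MUT3. The levels went down at every step in both wild type clones and stayed between 1285 and 1397 in MUT3. Its slope was -0.26 ± 0.03 in WT6 (adjusted p = 8.45e-06, limma) and -0.12 ± 0.03 in WT10 (adjusted p = 0.00833). POM121C, a copy of POM121 on the same chromosome, measured 1391, 1335, 1173, 800 and 683 in WT6, 1245, 1183, 1050, 999 and 756 in WT10, and 1054, 974.5, 1026, 966 and 1132 in MUT3. It fell with slopes of -0.24 ± 0.03 in WT6 (adjusted p = 4.53e-05, limma) and -0.16 ± 0.03 in WT10 (adjusted p = 0.00457). The 2 copies are nearly identical, so reads that fit both could not be assigned and their separate values are uncertain. TMEM48 (NDC1), which all pores need for assembly, fell in WT6 with a slope of -0.18, and its WT10 slope of -0.06 did not pass.

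Since NUP210 is one of the membrane components, its level was also set against theirs per kilobase of transcript. NUP210 amounted to 5.50% of TMEM48 in untreated WT6 and 1.34% at 25 ng/ml, and to 14.2% and 6.51% in WT10. In MUT3 the share stayed between 7.93% and 9.78% over all doses. Against the sum of POM121 and POM121C it went from 10.9% to 3.11% in WT6 and from 20.6% to 12.0% in WT10, with 13.6% to 16.0% in MUT3. The membrane components thus did not decline in proportion in either wild type clone.

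The Y complex had 6 of 9 members that fell and 1 that rose in WT6, and 3 that fell and 1 that rose in WT10. NUP133, at the stem of the Y, had the lowest WT6 slope of the 31 genes. It measured 1763, 1541, 1310, 1019 and 512 in WT6, 1541, 1591, 1532, 1403 and 858 in WT10, and 1387, 1520, 1406, 1545 and 1436 in MUT3. In WT6 it declined at every step, whereas in WT10 only the library at 25 ng/ml left the range of 1403 to 1591. The slope was -0.38 ± 0.04 in WT6 (adjusted p = 5.72e-06, limma) and -0.18 ± 0.04 in WT10 (adjusted p = 0.00334). NUP133 is also on a list of genes that the study chose on these samples, so its slopes are not independent evidence of a direction. NUP107, its partner in the stem, fell in both clones as well, and NUP85 fell with slopes of -0.05 in WT6 and -0.11 in WT10. NUP160, AHCTF1 (ELYS, which brings the complex to chromatin) and SEH1L fell in WT6 with slopes of -0.17, -0.13 and -0.09 and did not pass in WT10. NUP37 passed in neither clone in the main fit.

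SEC13 and NUP43 were the exceptions in direction within the complex. SEC13, which also coats vesicles leaving the endoplasmic reticulum, measured 2838, 2857, 3155, 4516 and 4590 in WT6, and only the upper pair of doses stood apart. Its range was 3033 to 3575 in WT10 and 3446 to 3750 in MUT3. SEC13 rose in WT6 (slope 0.17 ± 0.03, adjusted p = 0.000623, limma), and after removal of length and GC trends the slope was 0.04 and still passed. NUP43 rose in WT10, from 1370 through 1524, 1670 and 1812 to 1854, with a slope of 0.09 ± 0.03 (adjusted p = 0.0287, limma). In WT6 NUP43 ranged between 1708 and 2084 without passing the test.

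In the inner ring 4 of 5 members fell in WT6 and 3 in WT10. NUP188, a large scaffold protein, measured 9432, 8433, 7497, 4510 and 3777 in WT6, 4500, 4205, 3911, 3484 and 2433 in WT10, and 3709, 3417, 3502, 3697 and 3605 in MUT3. It stepped down at every dose in both wild type clones, and its untreated WT6 level was above that of every WT10 and MUT3 library. The slopes were -0.31 ± 0.04 in WT6 (adjusted p = 1.43e-05, limma) and -0.19 ± 0.04 in WT10 (adjusted p = 0.00192), the latter the lowest of the 31 genes in that clone. NUP205, the paralog of NUP188, fell by 0.29 per unit of log2 dose in WT6 and 0.11 in WT10, and NUP93, which both contact, by 0.13 and 0.12. NUP35 did not pass in either, with 373 to 330 in WT6 and 375 to 384 in WT10 from the untreated to the highest dose.

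The channel and both faces are represented by NUP62 and NUP98, which carry phenylalanine-glycine repeats. NUP62 measured 4075, 3809, 3206, 2755 and 2307 in WT6, 3091, 2952, 2664, 2234 and 1934 in WT10, and 2599, 2533, 2600, 2478 and 2638 in MUT3. It went down at all steps in both wild type clones, with slopes of -0.19 ± 0.02 in WT6 (adjusted p = 2.49e-05, limma) and -0.16 ± 0.02 in WT10 (adjusted p = 0.000517). NUP62 shares annotated sequence with IL4I1 on its strand and with ATF5 on the other. Of the counting, the study states only that default settings were used. Of its partners in the channel, NUPL1 (NUP58) fell in WT6 with a slope of -0.14 and had a slope of 0.01 in WT10, and NUP54 passed in neither clone. NUP98 measured 5272, 4956, 4625, 3294 and 2757 in WT6, 4141, 4304, 4273, 3864 and 2996 in WT10, and 4916, 5083, 5052, 5168 and 5119 in MUT3. In WT10 the decline began only at 5 ng/ml, and the slopes were -0.22 ± 0.03 (adjusted p = 4.63e-05, limma) and -0.11 ± 0.03 (adjusted p = 0.0180). RAE1, the mRNA export factor bound to NUP98, did not pass in either clone in the main fit.

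On the cytoplasmic face 4 of 6 members fell in WT6 and 1 rose, and 0 of 6 passed in WT10 with limma, edgeR or DESeq2, although 3 had an unadjusted p under 0.05 there. With length and GC trends removed, 4 of 6 were called lower in WT10 (limma), against 18.9% of genes. RANBP2, the SUMO ligase of the filaments, measured 2130, 2036, 1946, 1519 and 1074 in WT6, 1589, 1768, 1917, 1878 and 1493 in WT10, and 2347, 2376, 2405, 2656 and 2281 in MUT3. WT6 declined throughout, while WT10 was highest at 2.5 ng/ml and its untreated and 25 ng/ml libraries lay close together. The slope was -0.22 ± 0.04 in WT6 (adjusted p = 0.000164, limma) and -0.02 ± 0.03 in WT10 (adjusted p = 0.670). RANBP2 shares long stretches with the RGPD genes, which makes its value uncertain. NUP214, NUP88 and GLE1, which work at the export side of the pore, fell in WT6 with slopes of -0.21, -0.14 and -0.07. AAAS passed in neither clone in the main fit. NUPL2 (NUP42), which stimulates the release of mRNA with GLE1, rose in WT6 from 579 to 791, and its slope was 0.00 once length and GC trends were removed.

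All 3 basket genes fell in WT6 and 1 in WT10. TPR, the main filament of the basket, measured 5275, 4600, 4207, 2773 and 2108 in WT6, 3987, 4367, 4101, 3786 and 2636 in WT10, and 3517, 3596, 4043, 3827 and 3752 in MUT3. WT6 dropped at every step to 0.40 of the untreated level, and in WT10 the level at 25 ng/ml was below the other doses. The slopes were -0.30 ± 0.04 (adjusted p = 1.80e-05, limma) and -0.14 ± 0.04 (adjusted p = 0.0120). NUP153, which docks import receptors, fell in WT6 with a slope of -0.25 and did not pass in WT10, and NUP50 fell in WT6 by 0.07 per unit of log2 dose.

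Slopes of the wild type clones were next compared with those of MUT3, since the truncated mutant was the study's control. The mean slope of WT6 and WT10 was lower than the MUT3 slope for 18 of the 31 members, against 14.6% of all genes tested. It was higher for 0 members, against 10.1% of genes, while edgeR called 1 higher (NUPL2) and DESeq2 called 2 (NUPL2 and NUP43), and 23 members had an unadjusted p under 0.05 in either direction. The smallest p belonged to NUP133, with a difference of -0.29 ± 0.04 (adjusted p = 0.0010, limma), followed by NUP62 at -0.18 ± 0.03 (adjusted p = 0.00138), POM121 at -0.20 ± 0.03 (adjusted p = 0.00166) and NUP188 at -0.25 ± 0.04 (adjusted p = 0.00183). The study's list that holds NUP133 required a correlation in both wild type clones and none in MUT3. The difference of NUP133 is therefore not independent evidence. Without the libraries at 25 ng/ml the count was 0 (12 with an unadjusted p under 0.05), and 1 of all 12644 genes passed in that fit, and the median difference of the 31 was -0.10 beside -0.12 with all doses. Without the libraries at 1 ng/ml 9 members and 844 of all genes passed, and without the WT6 libraries at 5 and 25 ng/ml 11 members (1 of them higher) and 1595 of all genes. MUT3 differs from the wild type clones in its clonal origin and in its induction at the middle doses as well as in the transgene, and these cannot be told apart.

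The slope was lower in WT6 than in WT10 for 25 of the 31 members, against 49.9% of all genes tested. This difference passed for 8 members, against 7.09% of genes tested called lower. These 8 were NUP133, NUP153, NUP155, NUP205, NUPL1, POM121, RANBP2 and TPR. SEC13 was the 1 member that passed with a higher slope in WT6 than in WT10, against 7.28% of genes. NUP155, an inner ring protein, had the smallest p. It measured 2008, 1864, 1943, 1075 and 822 in WT6 and 899, 1028, 972, 947 and 793 in WT10, so that WT6 came down to the WT10 level at 25 ng/ml. The difference in slope was -0.25 ± 0.06 (adjusted p = 0.0253, limma), with -0.20 ± 0.05 for RANBP2 (adjusted p = 0.0257), -0.20 ± 0.05 for NUP133 (adjusted p = 0.0286) and -0.14 ± 0.04 for POM121 (adjusted p = 0.0312). The count was 0 without the libraries at 0, 1 or 25 ng/ml (between 8 and 14 with an unadjusted p under 0.05), where 5, 4 and 7 of all 12644 genes passed. The median difference of the 31 was -0.08, -0.09 and -0.14 in those fits, beside -0.08 with all doses. It was 0.01 without the WT6 libraries at 5 and 25 ng/ml, where 0 members (0 with an unadjusted p under 0.05) and 6 of all genes passed. Without the WT6 library at 5 ng/ml 15 members and 3714 of all 12644 genes passed. With length and GC trends removed 5 members and 1811 of 12123 genes did.

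**Figure D3:**
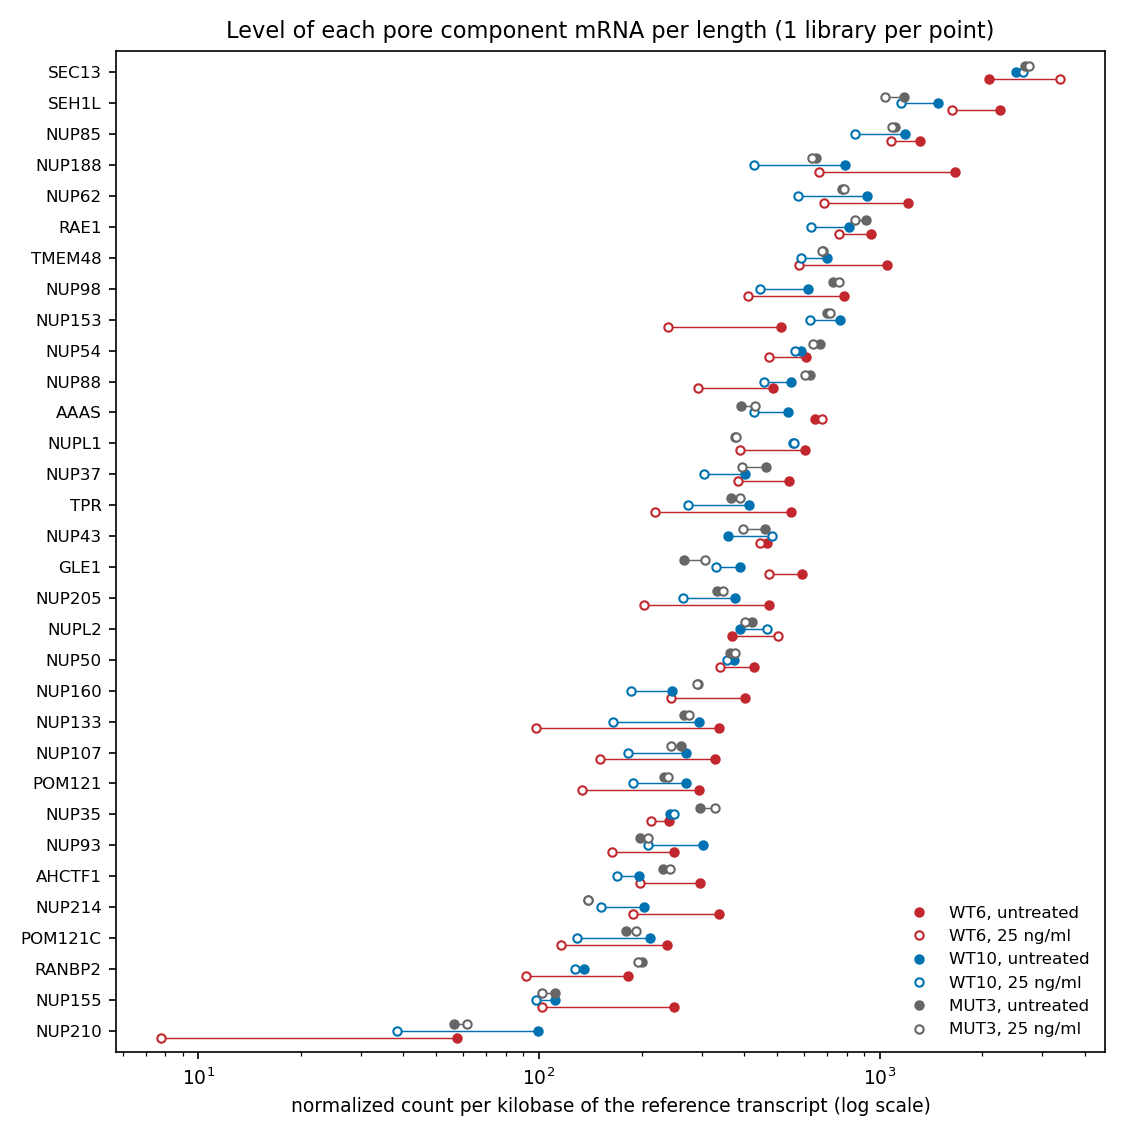
Level of each pore component mRNA (y axis) as normalized count per kilobase of its reference transcript (x axis, log scale), untreated (filled) and at 25 ng/ml doxycycline (open), 1 library per point and joined by clone. NUP210 is the lowest of the 32 genes at both doses in each clone, at 57.6, 99.5 and 56.2 untreated and 7.78, 38.2 and 61.6 at 25 ng/ml in WT6, WT10 and MUT3.

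Per kilobase of transcript, NUP210 was the least abundant of the 32 mRNAs in all 15 libraries. In untreated cells it had 57.6 normalized counts per kilobase in WT6, 99.5 in WT10 and 56.2 in MUT3. The next lowest gene was RANBP2 in WT6, at 182, and NUP155 in the other clones, at 111 in WT10 and 112 in MUT3. At 25 ng/ml the gap to the next gene was widest in WT6, where NUP210 stood at 7.78 and RANBP2 at 91.7. The highest level in untreated cells belonged to SEH1L in WT6, at 2259, and to SEC13 in WT10 and MUT3, at 2512 and 2668. The 31 other genes summed to 82393 normalized counts in untreated WT6 and 50686 at 25 ng/ml, to 65271 and 51265 in WT10, and to between 62211 and 64540 in MUT3.

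Starting levels also differed between the clones. The fitted untreated level was higher in WT6 than in the mean of WT10 and MUT3 for 20 of the 31 genes, against 33.7% of genes tested, and lower for 3 (NUP153, NUP88 and SEC13), against 30.7%. GLE1, a regulator of mRNA export helicases, was higher by 0.87 ± 0.07 on the log2 scale (adjusted p = 2.84e-08, limma), NUP188 by 1.24 ± 0.11 (adjusted p = 1.47e-07), NUP155 by 1.23 ± 0.13 (adjusted p = 1.14e-06) and SEH1L by 0.81 ± 0.10 (adjusted p = 2.74e-06). Between WT10 and MUT3, 10 were higher in WT10, against 14.3% of genes, and 2 were lower (NUP43 and RANBP2), against 13.9%. With the clones compared at matched doses, that is over their mean level and not at the fitted start, 7 members were lower and 4 higher in WT10, and the median difference of the 31 was -0.02 beside 0.18. In that fit 4434 of all 12644 genes were called in either direction. Leaving out the libraries at 0 or at 1 ng/ml left 3 members called, where 1344 and 1592 of all genes were. NUP93 led the untreated differences with 0.69 ± 0.09 (adjusted p = 4.17e-05, limma), followed by GLE1 with 0.53 ± 0.08 (adjusted p = 0.000254), NUPL1 with 0.63 ± 0.12 (adjusted p = 0.00138) and SEH1L with 0.41 ± 0.11 (adjusted p = 0.0123). For NUP210, as a description, the fitted untreated level of WT10 was above that of MUT3 by 0.90 on the log2 scale, and that of WT6 was below the mean of the other clones by 0.21. At 25 ng/ml NUP155 stood at 822 in WT6, 793 in WT10 and 822 in MUT3, and NUP188 at 3777, 2433 and 3605, so the WT6 excess of NUP155 was no longer seen there.

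Transcript length moved with the change in WT6. The 31 genes have long transcripts, with a median of 5151 bases against 3300 for the genes tested, and 12 were in the longest quintile (5799 bases or more) and 3 in the shortest quintile (1769 or less). Those that fell in WT6 had a median of 5842 bases and the 8 that did not had 2032. At 5 ng/ml in WT6 the median log2 change from the untreated library was 0.60 for the shortest quintile of all genes, -0.41 for the longest and -0.33 for the 31. At 25 ng/ml it was 0.58, -0.46 and -0.73. In WT10 at 25 ng/ml the shortest and longest quintiles stood at 0.06 and -0.08 and the 31 genes at -0.36. The pore components thus lay inside the range of the length quintiles at 5 ng/ml in WT6, and at the highest dose they lay below the longest quintile in WT6 and in WT10.

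With length and GC trends removed from each library, 25 of the 31 were called lower and 1 higher in WT6 (29.3% and 29.2% of the genes with an annotated length), of which 20 had been called lower before. In WT10 21 were called lower and 1 higher (18.9% and 16.6% of genes), including all 11 of before, and 20 were called lower in both clones. AAAS, GLE1, NUP153, NUP160, NUP214, NUP37, NUP88, RAE1, SEH1L and TMEM48 were called lower in WT10 only after the removal. AAAS, NUP35, NUP37, NUP54 and RAE1 were called lower in WT6 only after the removal, and AHCTF1, NUP50 and NUP93 (lower) and NUPL2 (higher) only before it. How far RNA quality or library preparation contributed to the trend with length in WT6 was not tested.

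**Figure D4:**
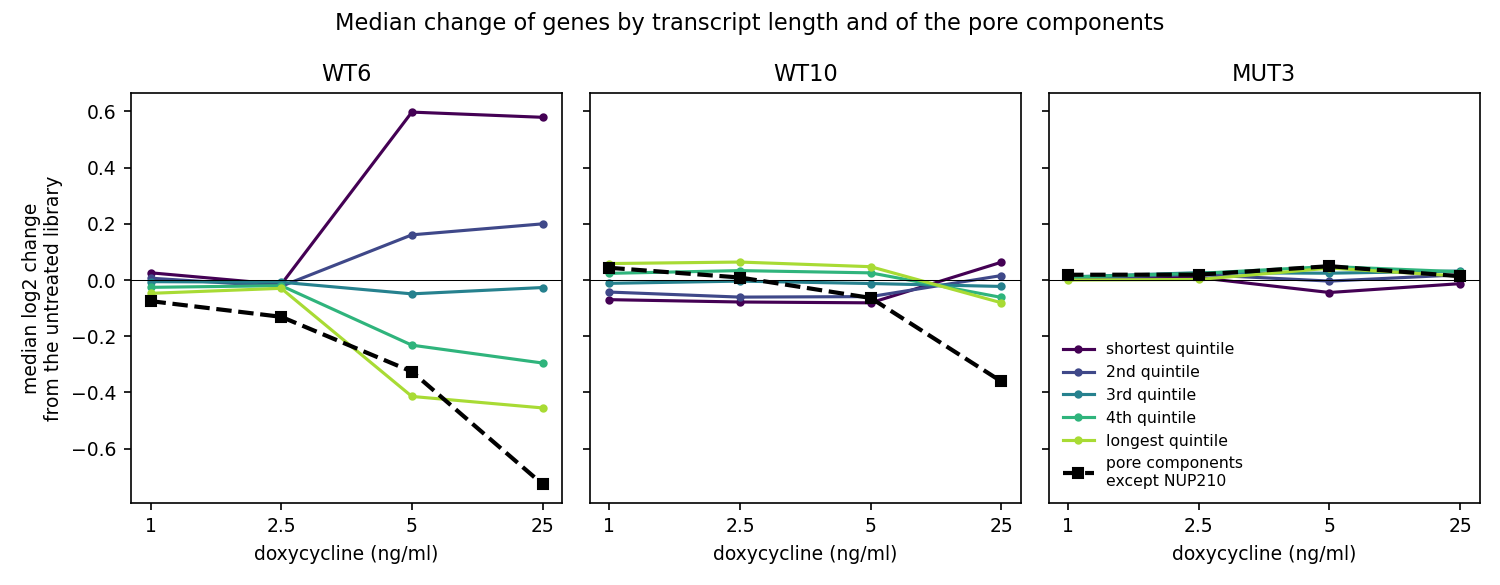
Median log2 change from the untreated library of the same clone (y axis) at each doxycycline dose (x axis, ng/ml) for all genes tested in quintiles of transcript length (coloured lines) and for the 31 pore components other than NUP210 (dashed). In WT6 the quintiles spread from 0.58 to -0.46 at 25 ng/ml with the pore components at -0.73, and in WT10 the pore components lie at -0.36 with the quintiles between 0.06 and -0.08.

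Partners of the pore outside the 32 members were examined with lists drawn up with earlier results of these data known, and their counts stand beside the shares of all genes tested (28.3% lower and 29.2% higher in WT6, 9.83% and 10.2% in WT10). Of 17 importins, the receptors that carry cargo inwards, 14 fell in WT6 and 6 in WT10. IPO9 went from 4983 untreated to 2429 at 25 ng/ml in WT6 and from 4481 to 3033 in WT10 (slope -0.13 ± 0.03, adjusted p = 0.00972, limma), and from 4572 to 4462 in MUT3. IPO5 fell in WT10 as well, from 8753 to 6089 (slope -0.12 ± 0.04, adjusted p = 0.0347, limma). The median slope of the list was -0.18 in WT6 and -0.05 in WT10.

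Of 17 exportins and mRNA export factors tested, 10 fell and 1 rose in WT6 and 7 fell in WT10. ALYREF, an adaptor for mRNA export, fell in WT10 from 4875 to 3162 (slope -0.13 ± 0.03, adjusted p = 0.0152, limma) but had a WT6 slope of -0.01 (adjusted p = 0.771). CSE1L, which returns importin alpha to the cytoplasm, fell in both, from 16304 to 7632 in WT6 and from 9646 to 6697 in WT10 (WT10 slope -0.12 ± 0.03, adjusted p = 0.0244, limma). Among 9 genes of the Ran cycle and SUMO enzymes at the pore, 5 fell and 1 rose in WT6 and 4 fell in WT10. RANBP1, which helps Ran release its cargo complex, fell from 3231 to 2018 in WT10 (slope -0.15 ± 0.04, adjusted p = 0.0154, limma), and SENP1, a SUMO protease held at the pore, from 598 to 417 (slope -0.12 ± 0.04, adjusted p = 0.0421).

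Among 15 genes of the nuclear envelope and lamina 9 fell and 1 rose in WT6, and 6 fell and 1 rose in WT10. LMNB2, a B-type lamin, went from 10417 to 3741 in WT6, from 10408 to 4812 in WT10 and from 9178 to 9286 in MUT3, and its WT10 slope was -0.24 ± 0.03 (adjusted p = 0.000111, limma). SUN2, which links the lamina to the cytoskeleton across the envelope, fell from 1524 to 473 in WT6 and from 1585 to 807 in WT10 (WT10 slope -0.21 ± 0.03, adjusted p = 0.000653, limma). TOR1A, an ATPase of the envelope lumen, rose in both clones, from 1695 to 3038 and from 1009 to 1533 (WT10 slope 0.13 ± 0.03, adjusted p = 0.00460, limma). Of 5 relatives of pore genes 3 were abundant enough to test. TMEM33, a membrane protein of the endoplasmic reticulum, rose from 1642 to 3078 in WT10 (slope 0.21 ± 0.03, adjusted p = 0.000494, limma), and SMPD4, a sphingomyelinase of the envelope, fell from 4095 to 3018 (slope -0.10 ± 0.03, adjusted p = 0.0150). No gene of these lists passed in MUT3 in the main limma fit, where no gene tested did and 295 had an unadjusted p under 0.05.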

How the data were processed

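mRNA levels were measured in 15 libraries, from 3 clones at 5 doxycycline doses. The authors sequenced polyA-selected RNA in pairs, used STAR to align to hg19 and HTSeq 0.5.4 to count, and scaled each library by its DESeq size factor. The study states that HTSeq ran with default settings. It names neither the annotation nor the strand setting itself. The deposited values are therefore a normalized signal, the read count of a gene divided by the size factor, and dividing by the worth of 1 read returned whole reads for 100% of values within 0.001 reads. The table held 23368 genes and 5 HTSeq tallies, which were left out. Reads outside genes made up 56.5% to 59.6% and ambiguous reads 0.527% to 0.617% of a library.

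Members, structural groups and gene lists were chosen with earlier results of these data known. The main test was limma 3.58.1 (R 4.3.3) on log2(normalized count + 1) with vooma precision weights and 6 coefficients, with 1 intercept and 1 slope per clone against log2(dose + 1). It covered the 12644 genes with a mean of at least 10 in each clone, left 9 residual degrees of freedom and used Benjamini-Hochberg adjustment over all genes. All 32 members passed the filter. With 1 library per condition, p-values measure scatter around the clones' lines, and nothing states whether cultures were separate. The fit was also run on simulated reads, which held no trend with transcript length. That run cannot show how the fit behaves on libraries with such a trend. The result of 1 further marker list is not reported here.

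Genes given values in every library were, in each structural group, those with the largest absolute slope past the threshold in WT10 and in WT6, and others named for their values (SEC13, NUP43, NUP155) were chosen after these were seen. From the lists, up to 2 genes per direction with the largest WT10 change were named. Lengths and gene positions came from GENCODE release 44 on hg19, and promoter windows from RefSeq on GRCh38.p14. Of the members 29 matched by symbol and 3 by an older symbol. In this annotation 14 members overlap another gene on their strand and 21 one on the other strand. Reads shared on the same strand could have been set aside as ambiguous. Those shared with the other strand could have been only if counting ignored strand. On the recovered reads edgeR 4.0.16 called dose slopes for 7113 (WT6), 2489 (WT10) and 1 (MUT3) of the genes, and DESeq2 1.42.0 called 7132, 2764 and 8, where limma called 7272, 2527 and 0. Other alternatives changed the scaling, pseudocount, filter, weights, dose scale and libraries. Summaries used Python 3.11.15 with pandas 2.3.3.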

Additional observations from a re-analysis of the deposited data

Results flagged for a closer look

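Each result below was picked because a test of the difference between clones passed (a contrast of slopes in the fit across all genes, limma with Benjamini-Hochberg adjusted p under 0.05). Values are differences in dose slope on the log2 scale per unit of log2(dose + 1).

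The mean slope of WT6 and WT10 minus that of MUT3 passed for 18 pore components. In the scaffold the difference was -0.29 for NUP133, -0.17 for NUP107, -0.11 for AHCTF1 and -0.08 for NUP85 of the Y complex, and -0.25 for NUP188, -0.21 for NUP205, -0.16 for NUP155 and -0.14 for NUP93 of the inner ring. Among membrane and channel components it was -0.23 for POM121C, -0.20 for POM121, -0.12 for TMEM48 and -0.18 for NUP62. On the faces of the pore it was -0.17 for NUP98, -0.16 for NUP214, -0.12 for RANBP2 and -0.10 for GLE1, and in the basket -0.24 for TPR and -0.17 for NUP153. NUP133 is on a list that the study chose on these samples for a response in both wild type clones and none in MUT3. Its difference is therefore not independent evidence. The clones differ in origin, in RBM47 level at the middle doses and in transgene, and these cannot be told apart.

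WT6 minus WT10 passed for 9 components. The slope was lower in WT6 by -0.25 for NUP155, -0.20 for NUP133, -0.20 for RANBP2, -0.18 for NUP153, -0.17 for NUP205, -0.16 for TPR, -0.15 for NUPL1 and -0.14 for POM121, and higher by 0.15 for SEC13. Transcript length moved with the change in WT6 at 5 and 25 ng/ml, and its part in these differences was not tested beyond the removal of length and GC trends, after which 5 differences passed. In that fit 1811 of 12123 genes passed.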

How the results depend on the processing

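Of 624 alternative values for the slopes and levels of single genes, 560 kept their side of the threshold, 63 kept the direction but no longer passed, and 1 called value reversed, the WT6 minus WT10 slope of NUP155, 0.022 without the WT6 libraries at 5 and 25 ng/ml. The sign also changed in 15 values past the threshold in neither fit, 13 of them MUT3 slopes and 2 the WT10 slope of RANBP2 (0.10 without the libraries at 25 ng/ml). Counts of members called stayed within 1.5 times the reported ones under edgeR, DESeq2, TMM scaling, a pseudocount of 5, no precision weights and each clone fitted alone. With log2 RBM47 in place of dose, 0 members passed for the slopes in WT6 (16 with an unadjusted p under 0.05), WT10 (7), the wild type mean against MUT3 (10) and WT6 against WT10 (0), in a fit that called 2, 89, 0 and 0 of all genes. Without the WT6 libraries at 5 and 25 ng/ml (chosen after seeing the data) the counts were 0 in WT6, 22 in WT10, 11 for the wild type mean against MUT3, 0 for WT6 against WT10 and 22 for the level of WT10 against MUT3. The same fit called 182, 4915, 1595, 6 and 5903 of all 12644 genes, in that order. Without the WT6 library at 5 ng/ml 15 differed between WT6 and WT10, as did 3714 of all 12644 genes. Removal of length and GC trends gave 22 in WT10, 5 for WT6 against WT10 and 21 for the level of WT10 against MUT3. In that fit 4303, 1811 and 5151 of 12123 genes were called, beside 2527, 1817 and 3562 of 12644 in the main fit. No filter on low values gave 5 for WT6 against WT10, where 1314 of 19406 genes were called. Leaving out 1 dose at a time gave 17 to 27 members in WT6, 0 to 17 in WT10, 0 in MUT3 in each case, 0 to 22 for the wild type mean against MUT3, 0 to 12 for WT6 against WT10, 15 to 25 for the level of WT6 and 3 to 14 for the level of WT10 against MUT3. Of all 12644 genes, those fits called 4688 to 7723, 17 to 3846, 0 to 5, 1 to 4543, 4 to 3080, 6041 to 8830 and 1344 to 4817, in the same order. The cause of these changes was not tested, and the part of the fewer residual degrees of freedom in these fits was not tested either. Clones matched by dose gave 5 members lower and 14 higher for the level of WT6, and 7 lower and 4 higher for WT10 against MUT3. Of all 12644 genes, 8961 and 4434 were called in these comparisons. The labels give no replicate numbers to block on. Depth was not limiting for the members, which had 45 reads or more in every library, but 1 library per condition cannot show variation between cultures.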

Other observations

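Some genes listed for basal or mesenchymal breast cancer lines had a dose slope. The keratins on that list, KRT8 and KRT18, are not specific to such lines. Of the 7 listed genes 3 fell and 2 rose in WT6, and 2 fell and 2 rose in WT10, where 28.3% and 29.2% of all genes did in WT6 and 9.83% and 10.2% in WT10. AXL, a receptor tyrosine kinase, fell from 25419 to 12303 normalized counts in WT6 and from 19567 to 13550 in WT10 between the untreated and the 25 ng/ml library (WT10 slope -0.12 ± 0.03, adjusted p = 0.00451, limma). MSN, which links actin to the membrane, fell from 10673 to 7359 and from 27078 to 19078 (WT10 slope -0.11 ± 0.03, adjusted p = 0.00948, limma). The keratins KRT18 and KRT8 rose, KRT18 from 10240 to 24036 in WT6 and from 9183 to 15294 in WT10 (WT10 slope 0.16 ± 0.04, adjusted p = 0.0156, limma) and KRT8 from 13843 to 31010 and from 11288 to 16573 (WT10 slope 0.12 ± 0.04, adjusted p = 0.0380, limma). In MUT3 the same genes measured 18887 and 19628 for AXL, 24497 and 27116 for MSN, 11915 and 12882 for KRT18 and 8159 and 9624 for KRT8. COL1A1, the fibroblast marker abundant enough to test, rose in WT10 from 300 to 493 (slope 0.16 ± 0.05, adjusted p = 0.0321, limma), while COL1A2 had at most 3 reads in every library.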
